A study of Mus musculus with 7 samples.

Results

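The proteases that take the cartilage matrix apart, and the inhibitors that hold them back, were followed in peak lists of active histone marks from mouse chondrocytes and fibroblasts. The set was given by name and held 10 of the 18089 protein-coding genes that both annotations used here place on the genome. These were the aggrecanases Adamts1, Adamts4 and Adamts5, the matrix metalloproteinases (MMPs) Mmp2, Mmp3, Mmp10 and Mmp14, and the tissue inhibitors of metalloproteinases Timp1, Timp2 and Timp3. Mmp3 and Mmp10, whose ends lie 46.4 kb apart on chromosome 9, were taken as 1 locus, which gave 9 loci. For each gene, peaks were looked up within 1 kb of the start of transcription (TSS), in the gene body and within 50 kb of the gene.

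ChIP-Seq for H3K27ac, an acetyl mark of active promoters and of active enhancers, was available as 2 replicate lists and for H3K4me2, a methyl mark of both, as 1 list from primary chondrocytes of newborn rib cartilage, cells freed with collagenase and used within a few passages. Primary fibroblasts from the skin of newborn mice, the negative control, had 1 H3K27ac list. A further pair of H3K27ac lists came from rib chondrocytes of WT mice and of E160Δ/Δ E308Δ/Δ mice, called the deletion here, in which both alleles are without the Sox9 enhancers E160 and E308. A seventh sample, the input, was not analysed here, and no genotype was given for the other chondrocytes or for the fibroblasts. With 1 fibroblast list and at most 2 lists in any group, no test was possible and no p-value is given.

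Cartilage owes its resilience to aggrecan held in a network of type II collagen. Aggrecanases of the ADAMTS family cut the core protein of aggrecan, the gelatinase MMP2 and the stromelysins MMP3 and MMP10 degrade other matrix proteins, and MMP14, a protease anchored in the cell membrane, cuts collagen and activates the proform of MMP2. TIMPs bind the active site of these enzymes. TIMP2 also takes part in the activation of MMP2 by MMP14, and TIMP3, which binds to the matrix, inhibits ADAMTS4 and ADAMTS5 as well as MMPs.

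The lists held 19454 to 66355 peaks on chromosomes 1 to 19 and X, with fibroblasts at the lower end and H3K4me2 at the upper end. They carry no read numbers, so depth is unknown, and scores rank peaks only within 1 list. A rank is given here as the share of the list that scored at least as high, so that a low percentage stands for a strong peak. Positions of all other lists are in mm9, while those of replicate 2 fit GRCm38 gene positions, although mm9 is its stated build. Replicate 2 was therefore taken as GRCm38 and compared by its distance from the TSS. Of 10 chondrocyte marker promoters, the chondrocyte lists marked 7 to 9 and the fibroblast list marked 1, that of Sox9. Replicate 1 marked neither Sox9 nor Col2a1. Of 7 fibroblast markers, the fibroblast list marked 3 (Dpt, Pdgfra and Twist2) and not Col1a1, Col1a2 or Col3a1, while the 4 chondrocyte H3K27ac lists marked 3 to 6, these collagens included. The labelled fibroblasts were therefore set apart by missing chondrocyte marks more than by fibroblast marks. Leukocyte and keratinocyte markers were at 0 in all lists, and those of osteoblasts, muscle and endothelium at 0 or 1. The part of such cells in the results was not tested. Replicate 1, H3K4me2 and fibroblasts share a list format with a score alone, and the other 3 lists have the narrowPeak format of MACS2, so differences between libraries cannot be told apart from differences in peak calling where formats differ.

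Mmp3 and Mmp10 were the members that no list marked at the promoter. Their start sites were compared in sequence with those of the marked members that had a sequence, which Adamts4, Adamts5 and Mmp2 did not. The 250 bases before the RefSeq TSS (GRCm38.p6) are shown for both, and for Adamts1 and Mmp14, which all 5 H3K27ac lists marked and which were added for contrast after their values were seen. Capitals mark matches on either strand to TGANTCA, the binding site of AP-1, to TATAAA, the TATA box, and to GGGCGG, the GC box bound by Sp1, in which adjacent matches may touch. The stretches are chr9:7445572-7445821 and chr9:7502092-7502341 (plus strand), chr16:85803114-85803363 (minus strand) and chr14:54431348-54431597 (plus strand), each 5′ to 3′ and ending at the base before the TSS.
Mmp3: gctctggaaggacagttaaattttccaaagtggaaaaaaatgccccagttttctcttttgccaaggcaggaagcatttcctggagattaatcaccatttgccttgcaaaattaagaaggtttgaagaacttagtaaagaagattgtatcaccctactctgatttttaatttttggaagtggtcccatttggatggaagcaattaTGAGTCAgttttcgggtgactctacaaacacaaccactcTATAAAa
Mmp10: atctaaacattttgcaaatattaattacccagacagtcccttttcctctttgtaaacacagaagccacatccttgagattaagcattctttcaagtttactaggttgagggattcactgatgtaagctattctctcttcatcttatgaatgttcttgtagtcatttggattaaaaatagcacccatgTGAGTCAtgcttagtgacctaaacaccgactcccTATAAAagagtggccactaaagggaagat
Adamts1: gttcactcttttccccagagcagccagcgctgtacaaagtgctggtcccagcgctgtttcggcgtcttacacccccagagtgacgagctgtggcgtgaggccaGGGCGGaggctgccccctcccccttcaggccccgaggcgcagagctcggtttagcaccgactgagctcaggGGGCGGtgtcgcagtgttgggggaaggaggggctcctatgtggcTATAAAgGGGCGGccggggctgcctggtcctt
Mmp14: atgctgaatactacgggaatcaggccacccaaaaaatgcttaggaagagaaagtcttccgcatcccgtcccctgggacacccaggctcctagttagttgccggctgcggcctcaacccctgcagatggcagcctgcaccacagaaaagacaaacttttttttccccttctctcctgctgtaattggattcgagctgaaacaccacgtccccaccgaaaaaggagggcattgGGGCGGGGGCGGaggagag

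Both stromelysin promoters held 1 AP-1 match and 1 TATA box. In Mmp10, the AP-1 match began 63 bp and the TATA box 29 bp before the TSS, and in Mmp3 they began 46 and 7 bp before it. Among the 7 members with a sequence, no other promoter held TGANTCA, and only Adamts1 also held TATAAA, 32 bp before its TSS. The GC box was present in Adamts1 (3 matches), Mmp14 (2) and in Timp1, Timp2 and Timp3 (1 each), and in neither stromelysin. Of 14503 promoters of the same length, 6.27% held TGANTCA, 12% TATAAA and 44.7% GGGCGG. The ratio of observed to expected CpG was 0.113 in Mmp3 and 0.117 in Mmp10, and 13.1% and 13.5% of promoters had a ratio as low or lower. It was 0.562 in Adamts1, 0.527 in Mmp14, 0.352 in Timp1, 0.744 in Timp2 and 0.672 in Timp3. Over all these promoters, those marked in at least 1 H3K27ac list had a median ratio of 0.757 and 5.68% held TATAAA, while for those marked in none the values were 0.233 and 19.6%. A match is a description of letters, and binding was not measured. Promoter sequences of Adamts4, Adamts5 and Mmp2 are not shown.

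Promoters were examined first. Of the 10 members, replicate 1 marked 6, replicate 2 marked 7, and the WT, deletion and fibroblast lists each marked 8. The shares of all 18089 promoters marked in the same lists were 44.2%, 43.1%, 50%, 47.1% and 47.5%. H3K4me2 lay at 7 members, against 66.3% of all promoters. The 6 members marked in all 5 H3K27ac lists were Adamts1, Adamts5, Mmp14, Timp1, Timp2 and Timp3, and 36.7% of all promoters shared this pattern. No member was marked in both chondrocyte replicates and left unmarked in fibroblasts, a pattern of 1.65% of promoters. The reverse pattern, seen at 3.76% of promoters, was met by 1 member, Adamts4.

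**Figure D1:**
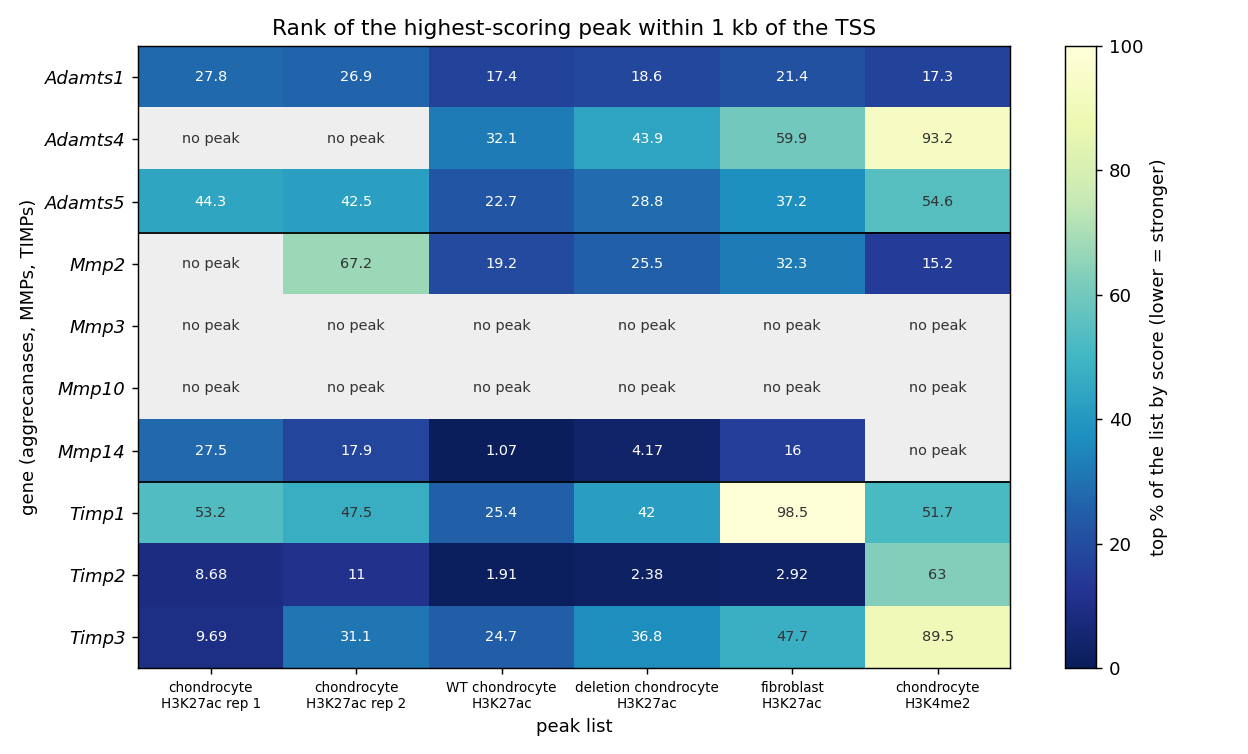
Rank of the highest-scoring peak within 1 kb of the TSS for each of the 10 genes (rows) in each of the 6 lists (columns), as the top percentage of the list by score. Dark cells are strong peaks and grey cells hold no peak. Mmp3 and Mmp10 are grey throughout, Timp2 is dark in all 5 H3K27ac lists, and the fibroblast cell of Timp1 is the palest of its row at 98.5%.

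Adamts1 encodes an aggrecanase that also cuts versican, and its promoter was marked alike in both cell types. The highest peak at its TSS ranked in the top 27.8% and 26.9% of replicates 1 and 2, 17.4% of WT, 18.6% of the deletion list and 21.4% of the fibroblast list. The peaks were 3103, 2823, 3729, 2987 and 3868 bp wide in the same order. The fibroblast rank lay between the ranks of the chondrocyte lists. H3K4me2 covered the same start site with 3858 bp at the top 17.3%.

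Adamts5 encodes the main aggrecanase of mouse cartilage and lies 55.1 kb from Adamts1 on chromosome 16, so that their windows overlap. Its promoter peak ranked in the top 44.3% and 42.5% of replicates 1 and 2, 22.7% of WT, 28.8% of the deletion list and 37.2% of the fibroblast list. Fibroblasts again lay inside the range of chondrocytes. In fibroblasts the marked stretch was a single peak of 5722 bp, from 1.03 kb before to 4.69 kb after the TSS. In the chondrocyte H3K27ac lists the same stretch was split into 2 to 4 peaks, which is why replicate 2 had 4 peaks near Adamts5 and fibroblasts 1. All H3K27ac at this gene lay within 5 kb of the start, apart from 1 replicate 1 peak about 13 kb into the gene, at the top 94.6%.

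Adamts4, the inducible aggrecanase, was the member whose promoter call differed most between chondrocyte lists. Neither chondrocyte replicate had a peak within 1 kb of its TSS, with the nearest 2.21 kb away in replicate 1 and 2.06 kb away in replicate 2. WT had a peak of 2493 bp there at the top 32.1%, the deletion a pair of peaks of 1969 bp in all, at the top 43.9% and 47.4%, and fibroblasts one of 2841 bp at the top 59.9%. H3K4me2 also marked the start, at the top 93.2%. The promoter was thus marked in fibroblasts and in 2 of 4 chondrocyte H3K27ac lists. Replicate 2, which lacked the peak, has the list format of WT and the deletion, which held it. With the WT list in place of the replicates, no member was marked in fibroblasts alone.

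Mmp2 was also split. Its promoter, at the start of a gene of 26.1 kb on chromosome 8, held no peak in replicate 1, where the nearest lay 19.4 kb away, and a peak of 286 bp at the top 67.2% in replicate 2. WT had 2569 bp at the top 19.2%, the deletion 1236 bp at the top 25.5% and fibroblasts 1538 bp at the top 32.3%. H3K4me2 marked it at the top 15.2%, its strongest rank at any member. The fibroblast value lay below those of WT and the deletion and above those of both replicates.

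Mmp14 carried the strongest protease promoter. Its peak ranked in the top 27.5% and 17.9% of replicates 1 and 2, 1.07% of WT, 4.17% of the deletion list and 16.0% of the fibroblast list. At the summit the deposited fold enrichment reached 12.4 for replicate 2, 47.2 for WT and 25.9 for the deletion, with −log10 q-values of 48.0, 215 and 112. Fibroblasts ranked above both replicates and below WT and the deletion. H3K4me2 had no peak within 1 kb of this TSS, and the nearest lay 3.15 kb away. Of the 6630 promoters marked in all 5 H3K27ac lists, 1.57% lacked H3K4me2 in the same way, and among the 6 such members Mmp14 alone did. Of the 108 such promoters that WT covered over at least as many bases within 5 kb of the TSS as Mmp14, 26 (24.1%) lacked it.

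Mmp3 and Mmp10 had no peak within 1 kb of the TSS or in the gene body in any of the 6 lists. From the TSS of Mmp3, the nearest peak was 85.3 and 261 kb away in the replicates, 149 kb away in WT, 261 kb in the deletion, 85.0 kb for H3K4me2 and 108 kb in fibroblasts. The 1 peak in the window of the locus was a fibroblast peak of 726 bp at the top 81.8%, at chr9:7553772-7554497 (mm9). It is intergenic and 4.3 kb upstream of Mmp8, the neutrophil collagenase. Both genes belong to a cluster of 10 MMP genes over 427 kb. How many peaks a stretch of this length holds elsewhere was not computed. In this cluster, replicate 1 had 5 peaks, replicate 2 had 0, WT had 1, the deletion had 0, fibroblasts had 3 and H3K4me2 had 7. Of the 10 promoters, fibroblast H3K27ac marked Mmp27 and H3K4me2 marked Mmp27 and Mmp13, the collagenase of hypertrophic chondrocytes.

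Timp2 had the strongest inhibitor promoter in each of the 5 H3K27ac lists. Its peak ranked in the top 8.68% and 11.0% of replicates 1 and 2, 1.91% of WT, 2.38% of the deletion list and 2.92% of the fibroblast list. Fibroblasts ranked above both replicates and below WT and the deletion. The deposited fold enrichment was 38.7 in WT and 28.8 in the deletion, the second highest of the member promoters in WT, after Mmp14, and the highest in the deletion.

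Timp1 differed in rank between the cell types. Its promoter peak stood in the top 53.2% and 47.5% of replicates 1 and 2, 25.4% of WT, 42.0% of the deletion list and 98.5% of the fibroblast list. All 4 chondrocyte lists ranked it above fibroblasts, where the peak was 234 bp wide against 733 to 2217 bp. The mark in fibroblasts lay near the bottom of the list. With the higher-scoring 50% of each list it was absent in fibroblasts, and also in replicate 1.

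Timp3 showed the same order with a smaller gap. Its ranks were 9.69% and 31.1% of replicates 1 and 2, 24.7% of WT, 36.8% of the deletion list and 47.7% of the fibroblast list. The widths ran from 2006 bp in fibroblasts to 2886 bp in WT. Of promoters marked in all 5 H3K27ac lists, 31.5% ranked lower in fibroblasts than in all 4 chondrocyte lists, as Timp1 and Timp3 did (2 of 6 members), a share close to the background. None of the 6 members ranked higher in fibroblasts than in all 4 chondrocyte lists, against 16.2% of those promoters. Adamts1, Adamts5, Mmp14 and Timp2 ranked higher in fibroblasts than in both replicates, against 32.7%, but WT and the deletion ranked each of the 4 above fibroblasts.

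The marked stretch around a start site can be long or short whatever its rank. Bases under peaks within 5 kb of the TSS amounted to 3.6, 3.31, 4.0, 3.57 and 3.87 kb at Adamts1 in replicate 1, replicate 2, WT, the deletion and fibroblasts. At Adamts5 they were 5.38, 2.73, 4.78, 4.32 and 5.72 kb, and at Mmp14 6.03, 4.47, 5.84, 4.84 and 6.71 kb. Every peak in this window counts, so the Mmp14 values include part of a separate peak at the Mrpl52 promoter. The Mmp14 promoter peaks alone were 3668 to 5543 bp wide. Adamts1, Adamts5 and Mmp14 were among the longest 10% in each of the 5 lists, as 3.85% of the promoters marked in all 5 were. The median over marked promoters was 1.13 to 1.64 kb in these lists. At the TIMPs the values were shorter in fibroblasts than in each chondrocyte list, at 0.62 kb against 1.07 to 2.46 kb for Timp1, 2.17 kb against 2.38 to 4.49 kb for Timp2, and 2.01 kb against 2.24 to 3.76 kb for Timp3. This held for 3 of 6 members marked in all 5 lists, and for 20.1% of all promoters so marked. At Timp2 the replicate 1 value includes part of a separate upstream peak. The Timp2 promoter peak alone was 1929 bp wide in replicate 1 and 2173 bp in fibroblasts. At Adamts1, Adamts5 and Mmp14 fibroblasts were at or above most chondrocyte lists.

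**Figure D2:**
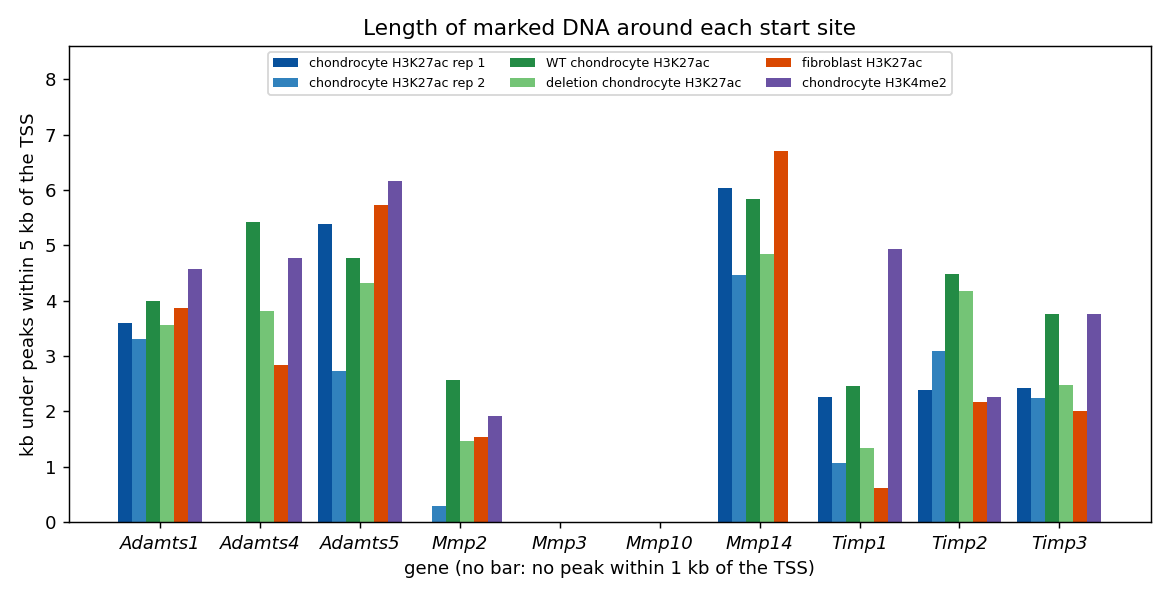
Length of DNA under peaks within 5 kb of the TSS (y axis, kb) for each gene (x axis) and list (coloured bars, 1 library each); no bar is drawn where no peak reached within 1 kb of the TSS. The orange fibroblast bar is the tallest H3K27ac bar at Adamts5 (5.72 kb) and Mmp14 (6.71 kb) and the shortest at Timp1 (0.62 kb), Timp2 and Timp3.

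Beyond promoters, peaks within 50 kb numbered 41 and 46 in the replicates, 62 in WT, 53 in the deletion, 30 in fibroblasts and 64 for H3K4me2, with each peak counted once. They covered 57.9, 45.3, 81.7, 58.6, 48.7 and 104.9 kb in that order, so that fibroblasts had the fewest peaks but covered more than replicate 2. The fibroblast list is also the shortest of the 6, and over all genes the median was 2 peaks per gene in fibroblasts and in both replicates. With equal numbers of top peaks the count near the members was 32 in replicate 1, 45 in replicate 2 and 30 in fibroblasts, and with peaks under 1 kb apart merged it was 33, 31 and 29. In the gene bodies, outside promoters, there were 7, 12, 21, 15 and 3 H3K27ac peaks in the first 5 of these lists. The total over all genes was not computed for this count. Peaks split from a promoter stretch add to it, as at Adamts5. Both replicates had more peaks than fibroblasts at Adamts5, Mmp14, Timp1, Timp2 and Timp3 (5 of 10 genes, background 19.7%), and fewer at Mmp10 (1 of 10, background 14.5%). At Adamts5 the difference in replicate 2 came from the splitting described above. At Mmp14 too, replicate 2 had 5 peaks against 4 because a pair of its peaks lay inside the stretch of 1 fibroblast peak (10.852 to 14.749 kb from the TSS). At Timp2, replicate 1 had 8 peaks against 7. A pair of its peaks lay 64.618 to 65.463 and 65.516 to 67.091 kb from the TSS. Fibroblasts had 1 peak there (65.526 to 66.872 kb). A gene body peak in both replicates and none in fibroblasts was found at Adamts5 and Mmp2 (2 of 10, background 3.84%), and the reverse at 0 members (background 3.32%). At Adamts5 the unsplit fibroblast peak, counted as a promoter peak, reached 4.69 kb into the gene and over every gene body peak of replicate 2. Of these 2 genes, only Mmp2 thus had gene body peaks of both replicates that no fibroblast peak overlapped.

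**Figure D3:**
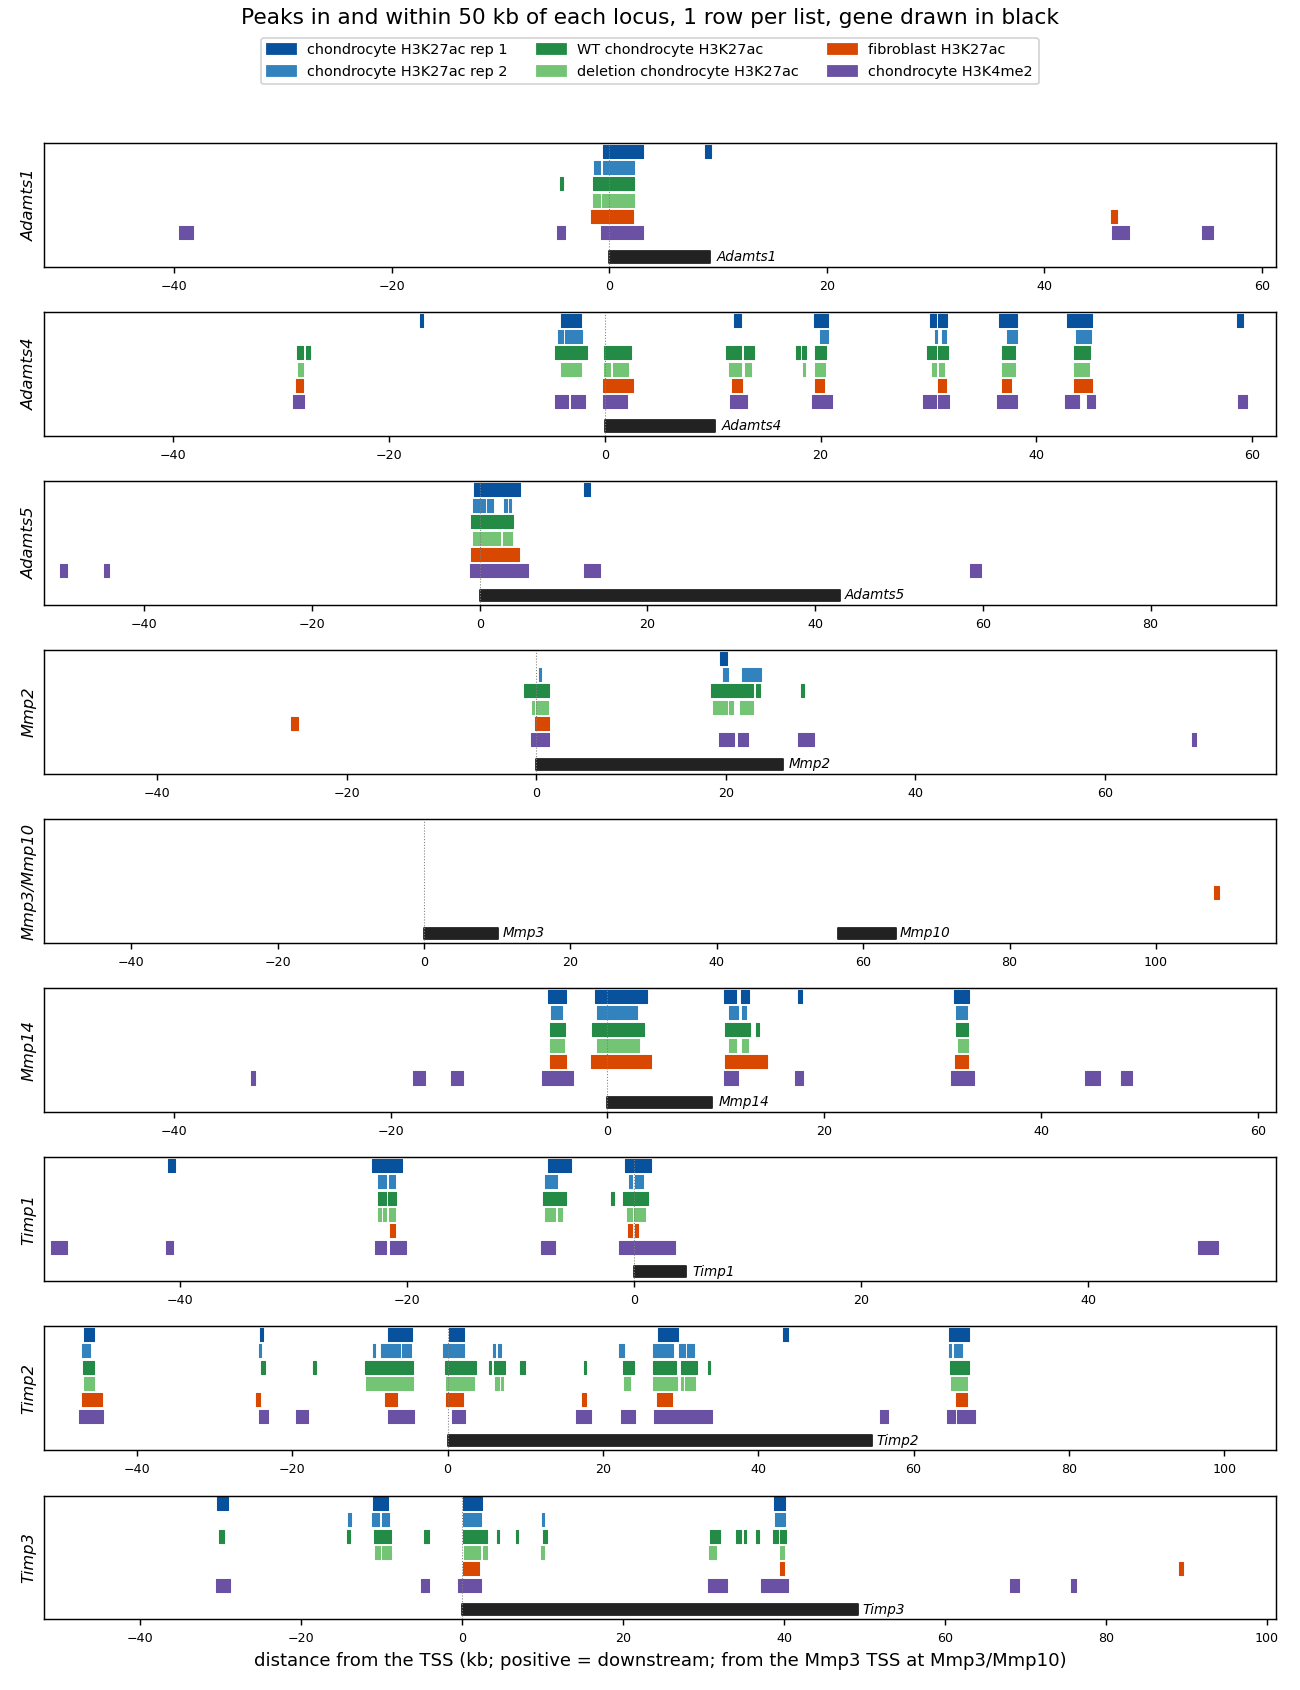
Peaks of the 6 lists (coloured bars, 1 row per list) by distance from the TSS in kb at the 9 loci, with the gene in black; distances at Mmp3/Mmp10 run from the Mmp3 TSS. Chondrocyte rows without a fibroblast bar are seen 6.9 kb upstream of Timp1, 10 kb upstream of Timp3 and 20.7 kb into Mmp2, and the Mmp3/Mmp10 panel is empty but for 1 fibroblast bar.

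When overlapping peaks were joined, the 9 loci held 80 regions. Of these, 20 were shared by both replicates and fibroblasts, 6 of them at member promoters and 8 at promoters of other genes. Both replicates without fibroblasts held 5 regions, all present in WT and in the deletion and 4 with H3K4me2, and fibroblasts without either replicate held 7. The remaining regions were in 1 replicate (16), in WT or the deletion alone (15) or in H3K4me2 alone (17). At least 1 peak in both replicates and not in fibroblasts was found at 5 of 10 members, against 24.5% of genes. The opposite was found at 6 of 10 members, against 31.9%. Of the 5 regions of both replicates, 2 lay in the window of Adamts4, and 3 lay away from promoters, at Timp1, Timp3 and Mmp2.

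Timp1 and Timp3 lie inside introns of the synapsin genes Syn1 and Syn3, which are read from the other strand. The region upstream of Timp1 (chrX:20439115-20441754, mm9) is centred 6.9 kb before its TSS. Its ranks were 52.5% and 36.1% in the replicates, 40.7% for WT and 60.5% for the deletion, and H3K4me2 stood at 85.1%. The region upstream of Timp3 (chr10:85752018-85754302) is centred 10 kb before its TSS and ranked in the top 23.6%, 26.9%, 24.1% and 25.2% of the 4 chondrocyte lists, which lay closer together than at any member promoter. No H3K4me2 peak was found there. Fibroblasts had no peak at either.

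The 300 bases around the WT summit of each region are shown (mm9, plus strand), as the 2 regions away from promoters at inhibitor genes that all 4 chondrocyte H3K27ac lists held and the fibroblast list did not. They are chrX:20439847-20440146, inside a coding exon of Syn1 and 7.30 kb upstream of the Timp1 TSS, and chr10:85753243-85753542, in an intron of Syn3 and 9.72 kb upstream of the Timp3 TSS. Neither held TGANTCA or the SOX sites ACAATG and ACAAAG on either strand, so that no letter is in capitals. Of 33369 windows at WT summits, 7.38% held TGANTCA, 10.4% ACAATG and 21.0% ACAAAG.
Timp1 upstream region: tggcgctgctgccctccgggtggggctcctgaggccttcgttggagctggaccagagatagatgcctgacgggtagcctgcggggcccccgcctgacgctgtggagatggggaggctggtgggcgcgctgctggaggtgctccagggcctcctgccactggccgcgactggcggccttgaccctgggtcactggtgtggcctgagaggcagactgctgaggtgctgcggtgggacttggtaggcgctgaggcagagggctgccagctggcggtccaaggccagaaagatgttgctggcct
Timp3 upstream region: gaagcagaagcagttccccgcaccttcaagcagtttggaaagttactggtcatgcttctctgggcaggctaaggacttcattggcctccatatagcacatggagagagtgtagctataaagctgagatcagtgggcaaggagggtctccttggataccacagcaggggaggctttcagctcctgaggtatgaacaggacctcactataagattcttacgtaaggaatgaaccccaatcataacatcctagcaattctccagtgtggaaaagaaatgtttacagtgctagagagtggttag

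The third region of this kind lay in an intron of Mmp2, 20.7 kb downstream of its TSS (chr8:95369702-95374131). In WT it covered 4415 bp at the top 24.6%, in the deletion 3245 bp at the top 26.2% and in replicate 2 2488 bp at the top 54.1%. Replicate 1 had only 750 bp there at the top 97.0%, so this call rests on a peak near the bottom of its list. H3K4me2 was present at the top 61.7%. Around Mmp2, fibroblasts instead had an intergenic peak of 822 bp, 25.5 kb upstream of the TSS at the top 59.9%, that no other list shared.

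Regions present in both cell types differed in rank in either direction. Examples follow, and the share of all shared regions that differed in this way was not computed. An intergenic region 7.5 kb upstream of Timp2 (chr11:118221416-118227678) ranked in the top 12.4%, 8.54%, 11.9% and 15.0% in replicate 1, replicate 2, WT and the deletion, and in the top 69.7% in fibroblasts. It covered 3068, 4046, 6161 and 5806 bp in chondrocytes and 1554 bp in fibroblasts. At 21.6 kb upstream of Timp1, in the UTR of Araf, chondrocytes ranked at 16.6%, 36.1%, 19.7% and 28.5% and fibroblasts at 60.0% with 509 bp. At both regions the fibroblast value lay outside the range of the 4 chondrocyte lists, with only 1 fibroblast library. Downstream of Mmp14, at 12.8 kb from its TSS, fibroblasts covered 3898 bp and chondrocytes 1164 to 2587 bp, while the fibroblast rank of 34.0% lay inside the chondrocyte range of 27.2% to 60.5%. Fibroblasts ranked higher than all 4 chondrocyte lists at the promoter of a neighbouring gene, Lgals3bp, 46.0 kb upstream of Timp2. They had 2633 bp there at the top 11.6%, against 1034 to 1397 bp at 14.5% to 37.1% in chondrocytes. They also ranked higher at the promoter of Lrp10, 32.8 kb downstream of the Mmp14 TSS, at 15.7% against 21.1% to 50.1%.

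The 7 fibroblast regions absent from both replicates ranked between the top 39.5% and 81.8%. Besides the Adamts4 promoter, they lay at the Tomm40l promoter 28.4 kb upstream of Adamts4 (39.5%), and 47.0 kb downstream of the Adamts1 TSS (60.5%). Others were the regions upstream of Mmp2 and Mmp8 given above, 1 in an intron of Timp2 (17.5 kb, 80.7%) and 1 beyond Timp3 (89.3 kb, 76.4%). WT had peaks at 3 of the 7 regions and the deletion at 2.

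The share of peaks lacking a partner in the second cell type was set against that for all genes. Near the members, 15 of 41 replicate 1 peaks overlapped no fibroblast peak, or 36.6% (95% CI, 22.1–53.1, exact Clopper-Pearson), and near any protein-coding gene 43.6% did not. For WT the shares were 58.1% (44.8–70.5) and 53.0%. In the other direction, 8 of 30 fibroblast peaks lacked a replicate 1 peak, or 26.7% (12.3–45.9), against 33.6%, and 16.7% (5.64–34.7) lacked a WT peak, against 21.9%. Each interval held the value for all genes. Intervals cover counting error only.

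**Figure D4:**
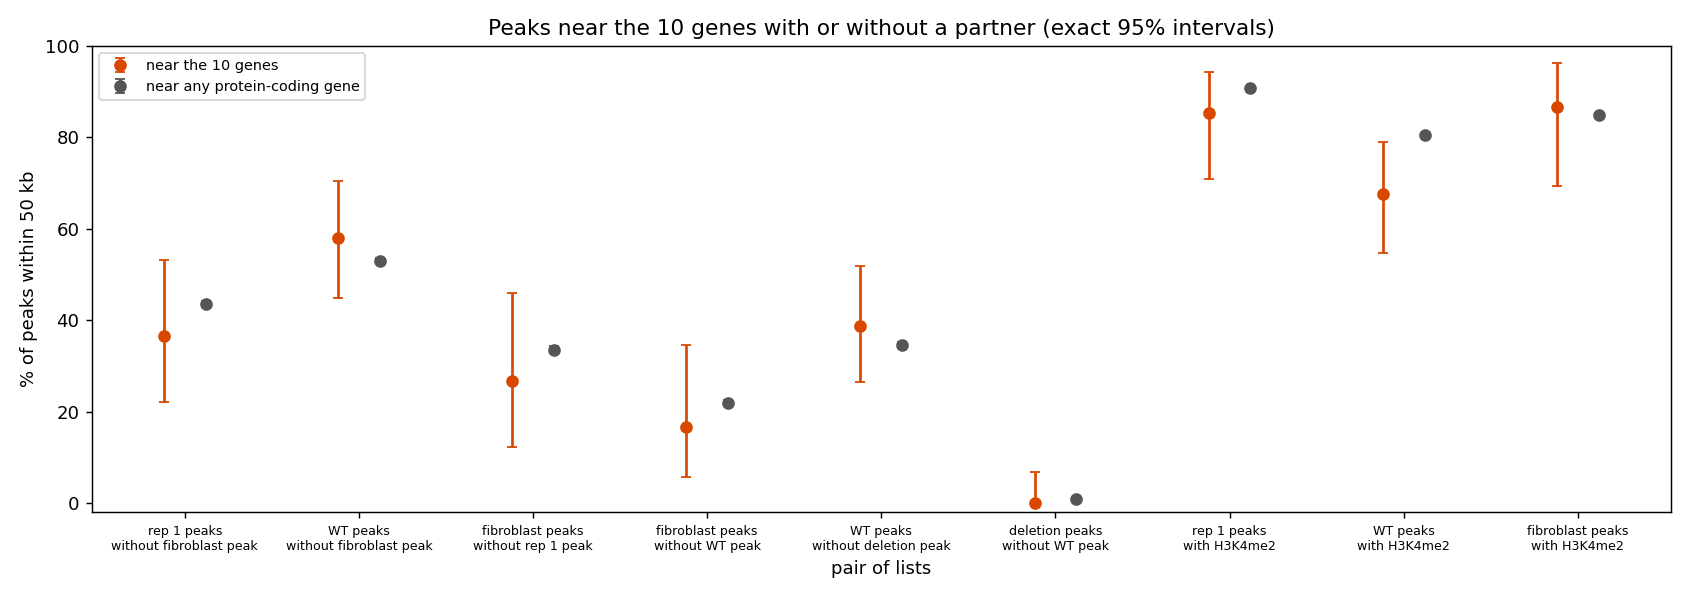
Percentage of peaks within 50 kb that lacked (first 6 pairs) or had (last 3 pairs) an overlapping peak in the second list, near the 10 genes (orange) and near any protein-coding gene (grey). Bars are exact 95% intervals for counting error, and the grey value lies within the orange interval in every pair but WT peaks with H3K4me2, where 80.6% lies above it.

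The deletion of E160 and E308 was compared with WT at the same loci. Of 62 WT peaks, 24 had no deletion peak, or 38.7% (26.6–51.9), against 34.7% near all genes. The WT list is the longer one (33369 peaks against 25213), and with equal numbers of top peaks the share was 20.8%. None of the 53 deletion peaks lacked a WT peak, which allows up to 6.72%, against 1.03%. The 8 marked member promoters were the same in both lists. Timp3 had the most WT peaks without a partner, 11 of 17, all of them between the top 72.4% and 99.0%. At Timp2 there were 6 of 14, at Adamts4 and Mmp2 2 each, and at Adamts5 0. The unpaired WT peaks near the members had a median rank of 82.9% and the paired ones 24.5%, against 82.2% and 31.8% in the whole WT list. A peak in the Timp3 gene was present in both lists, at the top 36.0% in WT and 77.7% in the deletion. In WT it lay 30.857 to 31.512 kb from the TSS.

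H3K27ac peaks were also set against those of H3K4me2. Of the 41 replicate 1 peaks, 35 overlapped an H3K4me2 peak, or 85.4% (70.8–94.4), against 90.7% near all genes. The share depends on the longer H3K4me2 list (66355 peaks against 25580), and was 36.6% with equal numbers of top peaks and 41.5% with 50% reciprocal overlap. Of the 30 fibroblast peaks, 26 lay at a chondrocyte H3K4me2 peak, or 86.7% (69.3–96.2), against 84.8%. Of the 62 WT peaks, 42 did, or 67.7% (54.7–79.1), and the value of 80.6% near all genes lay above this interval. The WT peaks without H3K4me2 were most frequent at Timp3, with 9 of 17, where peaks of 1 locus were split and are not independent. The 17 H3K4me2 regions with no H3K27ac in any list lay at all loci but Adamts4 and Mmp3/Mmp10. Among them were regions 38.9 kb upstream and 55.0 kb downstream of the Adamts1 TSS and 44.5 kb upstream of the Adamts5 TSS. The share of such regions near all genes was not computed.

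The other proteases and inhibitors of the matrix were taken from a list of 45 genes of the MMP, ADAMTS, TIMP, plasmin and cathepsin systems. Replicate 1 marked 11 of their promoters, replicate 2 marked 13, WT 21, the deletion 15, fibroblasts 16 and H3K4me2 37. Each H3K27ac count is a smaller share of the 45 than the share of all promoters given above, and the H3K4me2 count a larger one. Mmp16, a membrane-type MMP, was marked in both replicates (35.5%, 36.1%) and not in fibroblasts. In all, 2 of 45 had this pattern (background 1.65%), and 5 of 45 were marked in fibroblasts and in neither replicate (background 3.76%). Of these 5, Adamts2, the procollagen N-proteinase, ranked in the top 8.90% in fibroblasts and 64.6% in WT. Mmp23 (32.3%) and Mmp27 (36.4%) followed, and Adamts7 (64.0%) and Adamts9 (97.5%) were weaker. WT ranked Mmp23 (18.7%) and Adamts9 (63.6%) above fibroblasts and Adamts7 (77.5%) below. Mmp27 was the 1 of these 5 without H3K27ac in WT. No list marked 8 of the 45, and 6 of these (Mmp1a, Mmp1b, Mmp7, Mmp8, Mmp12 and Mmp20) belong to the cluster of Mmp3 and Mmp10.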

How the data were processed

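The 6 deposited peak lists were taken unchanged. According to the methods and the submitters' processing notes, the authors trimmed reads using fastp, aligned them to mm9 using Bowtie2 2.4.4 and ran MACS2 2.2.4 on each library against input. The stated mm9 build does not match replicate 2, whose positions fit GRCm38 genes. The score of 3 lists (replicate 1, H3K4me2, fibroblasts) has no stated unit. In the other 3, the score equals 10 times the −log10 q-value, and the authors also gave fold enrichment, −log10 p-value and summit. Depth is unknown, since the lists hold no read numbers.

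GENCODE vM1 (mm9) and RefSeq (GRCm38) gene positions were joined by symbol, and no coordinate was converted. A promoter was marked by a peak within 1 kb of the TSS. Peaks were partners with an overlap of 1 bp. Replicate 2 was placed by distance from the TSS within 500 bp. For Timp2 the RefSeq TSS lies 329 bp inside the GENCODE one. Promoter sequences came from RefSeq for 7 of 10 members. Regions were described by joining overlapping peaks, and intervals are exact (Clopper-Pearson, 95%). Overlaps were checked against bedtools 2.31.1 and on simulated lists. All 10 members were named, and of the other genes those whose promoter call differed between both replicates and fibroblasts, besides genes next to a region described. Results at some neighbouring and related genes are not reported here. The members and lists were chosen with earlier results of these data known. Python 3.11.15, pandas 2.3.3, numpy 2.4.6 and scipy 1.17.1 were used.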

Additional observations from a re-analysis of the deposited data

How the results depend on the processing

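No group held enough libraries for a test, so the alternatives show how counts and shares moved. Of 96 values recomputed under an alternative, 76 stayed within 1.5 times the main count or inside its 95% interval. No paired analysis was possible because only 1 group has 2 replicates. H3K4me2 marked 2 member promoters with the higher-scoring 50% of each list. Promoters marked in fibroblasts and in neither replicate numbered 1 to 2 when a chondrocyte replicate was left out (2, Adamts4 and Mmp2, without replicate 2), and 0 with WT in place of the replicates.

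Peaks within 50 kb fell to 22, 25, 38, 31, 31 and 18 in replicate 1, replicate 2, WT, the deletion, H3K4me2 and fibroblasts with the higher-scoring 50% of each list. A window of 100 kb raised them to 107 for H3K4me2 and 51 in fibroblasts. WT held 40 among equal numbers of top peaks (19454), and the deletion 31 when peaks under 1 kb apart were merged.

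With 50% reciprocal overlap, 61% of replicate 1 peaks lacked a fibroblast peak, 46.7% of fibroblast peaks lacked a replicate 1 peak, 53.2% of WT peaks lacked a deletion peak and 41.5% of replicate 1 peaks had H3K4me2. WT in place of replicate 1 gave 58.1% without a fibroblast peak. Equal numbers of top peaks, here the length of the shorter list of each pair, gave 20.8% of 48 WT peaks without a deletion peak (25213 peaks) and 36.6% of replicate 1 peaks with H3K4me2 (25580 peaks). The cause of these shifts was not tested. Depth was unknown, so a missing peak cannot be told apart from one below the caller's threshold, and H3K27ac does not measure the proteases themselves.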
